A study of Mus musculus with 2 samples.

Results

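Fatty acid oxidation and peroxisome genes were described on 2 arrays of mouse glomerular RNA. Of 46 genes listed for this group, 44 had a probe set whose platform annotation names them alone, out of 18193 genes so named on the array. The 44 genes were covered by 83 probe sets, of which 6 were below the signal floor on both arrays, and the set standing for each of the 44 genes reached that floor of 52.7 on at least 1 array. The expression of Cpt1b and Acsl1 was not analysed here. The rule that finds these genes uses their names and not their signals, but the list was drawn up with earlier results of these data known.

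All mice were male, of the C57BL/6J background, and carried floxed alleles of GC-A, the guanylyl cyclase receptor of the natriuretic peptides, and of p38, a stress-activated kinase. The double knockout (GC-A fl/fl p38 fl/fl with the Nephrin-Cre allele, Cre/+) deletes the floxed sequence where the nephrin promoter is active, that is, in podocytes, which form the epithelial side of the filter. The floxed control had the same floxed alleles and is labelled Nephrin-Cre (+/+), read here as without Cre. At 2 months of age both had received a diet with 6% NaCl for 3 weeks, together with aldosterone from a minipump (0.2 µg per minute and kg of body weight). Glomeruli were collected by sieving. An untreated group was not analysed here, and the number of mice behind an array is not given in the sources used here. Each genotype had 1 array, so no difference below has a replicate check or a test, and "higher" and "lower" describe the double knockout array against the control array.

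Fatty acids are broken down by beta-oxidation, a repeating series of dehydrogenation, hydration, dehydrogenation and thiolysis that shortens an acyl-CoA and feeds electrons to the respiratory chain. Mitochondria take long-chain acyl groups through the carnitine shuttle. Peroxisomes handle very long, branched and dicarboxylic chains, release hydrogen peroxide at the first step, and hand shortened chains on to mitochondria. In the kidney both organelles are most abundant in the tubule, above all the proximal tubule, which runs on fatty acids, and the nuclear receptor PPARα with its coactivator PGC-1α drives many of these genes.

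The members as a whole were lower in the double knockout, and 41 of 44 had a difference below 0 (93.2%, against 43.9% of 13290 measured genes). Their median log2 difference was -0.58, against 0.07 over all measured genes. At least 1.5-fold lower were 20 members (45.5%, against 10.0% of measured genes), and at least 2-fold lower were 10 (22.7%, against 2.87%). Removing a loess trend on signal left 6 of them past that size. The 10 were Hacl1, Acox2, Bdh1, Acot12, Ehhadh, Acaa1b, Acox3, Echs1, Pecr and Phyh. Pdk4 alone was at least 2-fold higher (2.27% of members, against 3.53% of measured genes), and no member was so with the floor at the 60th percentile. All directions are on the arrays' deposited scaling. Set against the median of proximal tubule markers, the median of the members was 0.30 and 12 of 44 were lower. On that scale the median of all measured genes was 0.95, and 4.28% of them were lower.

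**Figure D1:**
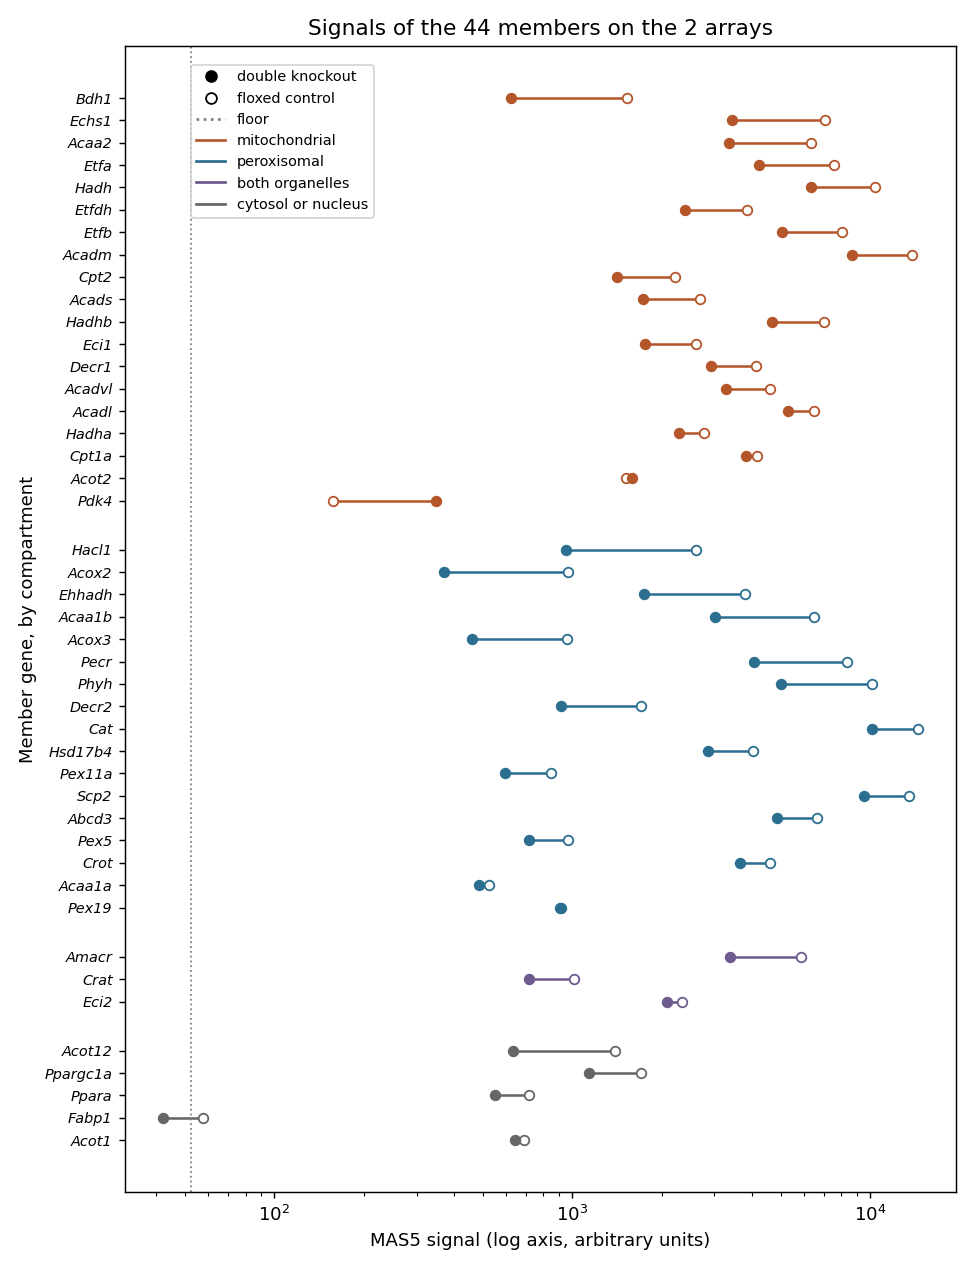
MAS5 signal (log axis) of each of the 44 members on the double knockout array (filled) and the floxed control array (open), sorted by difference within compartments; the dotted line is the floor of 52.7. The filled point lies to the left for 41 members, and Pdk4 is the only member at least 2-fold higher.

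Tubular markers were lower as well. Of 31 measured proximal tubule markers all 31 were lower, 27 of them at least 1.5-fold and 9 at least 2-fold, with a median of -0.88 and a summed signal of 215355 in the double knockout against 362108 in the control. The 20 measured distal nephron markers were also all lower (median -0.71, summed signals 49572 and 71261). No marker of either tubule list was below the floor on an array, so tubular RNA was present in both sieved samples. Of 75 measured markers of podocytes, endothelium, mesangium and parietal cells, 67 were higher (median 0.64, summed signals 346115 and 254242). Among all 13290 measured genes 7454 were higher. All 22 measured podocyte markers were above the floor on both arrays. Of these podocyte markers 18 were higher and 4 lower (median 0.45). At least 1.5-fold higher were 8 of the 22 (against 13.7% of measured genes), and at least 1.5-fold lower were 2 (9.09%, against 10.0%). All 19 measured macrophage markers were higher too, 17 of them at least 1.5-fold (against 13.7% of measured genes), with a median of 0.91. Of the 17, 2 had a control signal below the floor and counted as measured through the double knockout array alone. The part of these shifts in the values of the members was not tested, and in bulk RNA fewer cells of a type and less RNA per cell cannot be told apart. As a check of the labels, Npr1, which encodes GC-A, read 102 in the double knockout against 167 in the control, and Mapk14, taken as the floxed p38 gene, read 2607 and 2628; where their probe sets lie relative to the deleted exons is not given in the sources used here.

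The regulators were moderately lower. Ppara, which encodes PPARα, read 550 in the double knockout against 713 in the control in its brightest probe set, a log2 difference of -0.37, and its other probe sets gave -0.76 and -0.66. Ppargc1a, which encodes PGC-1α, read 1138 and 1694, a difference of -0.57, and its 5 probe sets ran from -0.79 to -0.44. All 8 probe sets of the 2 regulators were thus lower, none of them by 2-fold. Pdk4 went the other way. It encodes a kinase that shuts off pyruvate dehydrogenase and so spares glucose when fat is burned, and it is a textbook PPARα target. Its single probe set read 349 in the double knockout against 158 in the control, 2.22-fold higher (log2 1.15), at percentile 97.9 of the differences of all measured genes.

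Among the members that serve entry into mitochondria, Cpt2 was lower in its brightest probe set and Cpt1a had no settled direction. Cpt1a, the outer-membrane carnitine palmitoyltransferase that limits the rate of entry, read 3830 in the double knockout against 4179 in the control (-0.13). Its cross-hybridising probe sets read higher in the double knockout, by 0.35 and 0.64, so the direction of Cpt1a is not settled on these arrays. Cpt2, which reforms acyl-CoA on the inner side, was 1.57-fold lower at 1408 against 2204, while a dim cross-hybridising set of it, under the floor in the control, read 82.7 and 20.7. Fabp1, a cytosolic fatty acid carrier, stood at the floor with 42.3 and 57.4. Its other probe set was at 93.6 in the control and, at 23.6, below the floor in the double knockout. Fabp1 therefore gives no firm difference.

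The mitochondrial beta-oxidation enzymes were lower in the probe sets that stand for them. All 9 enzymes of the spiral were below 0, with a median of -0.64 and a range from -1.04 to -0.29, and 5 were at least 1.5-fold lower. Echs1, the short-chain enoyl-CoA hydratase, was the only one of them at least 2-fold lower, at 3425 in the double knockout against 7046 in the control (2.06-fold). Acaa2, the thiolase that ends each turn, followed with 3347 and 6341 (1.89-fold), and its 3 probe sets ran from -0.92 to -0.67.

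The acyl-CoA dehydrogenases, which open the spiral and differ by chain length, were ordered unevenly. Acadm (medium chain) read 8658 and 13776, a difference of -0.67. Acads (short chain) read 1725 and 2692, a difference of -0.64. Acadvl (very long chain) gave -0.49 with 3270 against 4600, and Acadl (long chain) gave -0.29 with 5286 against 6450. On the deposited scaling the medium- and short-chain genes thus had larger differences than the longer-chain genes, with no spread to judge this by. The order did not hold under each scaling. Acadm and Acadvl stood at -0.44 and -0.42 after quantile normalization, and at -0.39 and -0.40 after removal of a loess trend.

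Hadha and Hadhb encode the α and β subunits of the trifunctional protein, which carries out the later steps on long chains. Hadha read 2274 in the double knockout against 2773 in the control (-0.29), and Hadhb read 4693 and 7019 (-0.58). A cross-hybridising Hadhb set read -0.26, so the gap between the subunits is no wider than that between these Hadhb sets. Another Hadhb set read 0.06 but was dim, at 69.4 and 66.5, near the floor. Hadh, the short-chain hydroxyacyl-CoA dehydrogenase, read 6329 and 10374 (-0.71). Its cross-hybridising sets disagreed, the bright one at -0.63 and a dim one, at 239 and 166, at 0.52.

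Hadha and Hadhb lie head to head on chromosome 5, with start sites 273 bases apart in RefSeq's annotation of GRCm38.p6. The 250 bases before the Hadhb start are shown because they lie wholly in the gap and so precede both genes (chr5:30155003-30155252, + strand, all in lower case as nothing is marked).
Hadhb: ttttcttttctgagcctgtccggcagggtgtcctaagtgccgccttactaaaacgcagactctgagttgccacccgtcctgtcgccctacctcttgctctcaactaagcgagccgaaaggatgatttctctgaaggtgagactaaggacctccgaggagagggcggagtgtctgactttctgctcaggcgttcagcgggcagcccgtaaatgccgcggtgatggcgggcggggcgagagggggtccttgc

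The enzymes that prepare unsaturated chains for the mitochondrial spiral were lower by similar amounts. Decr1, the 2,4-dienoyl-CoA reductase, read 2911 in the double knockout against 4127 in the control (-0.50), with a second probe set at -0.16. Eci1, an enoyl-CoA isomerase, read 1749 and 2610 (-0.58). The electron-transfer genes were close together. Etfa and Etfb, the subunits of the flavoprotein that takes electrons from the dehydrogenases, read 4224 against 7557 (-0.84) and 5036 against 8023 (-0.67). Etfdh, which passes these electrons to ubiquinone, read 2388 and 3870 (-0.70). All 3 were at least 1.5-fold lower and none 2-fold.

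Among the remaining mitochondrial members, Bdh1 had the largest difference. It encodes 3-hydroxybutyrate dehydrogenase, which interconverts the ketone bodies, and read 620 in the double knockout against 1527 in the control, 2.46-fold lower. A dimmer Bdh1 probe set read 66.3 and 133. Acot2, a mitochondrial acyl-CoA thioesterase, read 1580 and 1517 (0.06), with another probe set at -0.22. Acot1, its near-identical cytosolic relative, read 641 and 688 (-0.10), and probe sets of such close copies may share signal. Acot12, a cytosolic acetyl-CoA thioesterase, differed from both, at 631 and 1389 (2.20-fold lower), and its second measured probe set gave -1.51.

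In the peroxisomal spiral 4 of 7 enzymes were at least 2-fold lower, against 1 of 9 in the mitochondrial spiral, and the median was -1.06. After removal of a loess trend, Acaa1b (-0.99) and the mitochondrial Echs1 (-0.90) were short of 2-fold. Acox2, the oxidase for branched chains and bile acid intermediates, read 371 in the double knockout against 964 in the control (2.60-fold lower). Acox3, the other branched-chain oxidase among the members, read 462 and 962 (2.08-fold lower).

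Ehhadh, the bifunctional enzyme that acts after the oxidases and a classic PPARα target, read 1734 and 3793 (2.19-fold lower). Hsd17b4, the second bifunctional enzyme, which serves branched and very long chains, was lower by less, with 2851 and 4043 (-0.50) and a further probe set at -0.43. The thiolases also separated. Acaa1b read 3003 in the double knockout against 6492 in the control (2.16-fold lower), while Acaa1a read 487 and 523 (-0.10) and 472 and 532 (-0.17) in its probe sets. Both Acaa1a sets are of the cross-hybridising type, and the genes are near-identical copies, so their gap is uncertain. Scp2, whose product includes a thiolase for branched chains, read 9554 and 13537 (-0.50), and its 4 probe sets ran from -1.14 to -0.37.

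The alpha-oxidation genes, which shorten methyl-branched phytanic acid by a single carbon before beta-oxidation can begin, were both at least 2-fold lower. Hacl1, the 2-hydroxyacyl-CoA lyase, read 952 in the double knockout against 2591 in the control. At 2.72-fold lower it had the largest difference of all members, at percentile 0.459 of measured genes. Phyh, the phytanoyl-CoA hydroxylase that precedes it, read 5019 and 10142 (2.02-fold lower). Amacr, the racemase that readies branched chains for beta-oxidation in peroxisomes and mitochondria, read 3381 and 5856 (1.73-fold lower). The auxiliary enzymes of the peroxisome were Pecr, a trans-2-enoyl-CoA reductase, with 4079 and 8357 (2.05-fold lower; second probe set -0.60), and Decr2, the peroxisomal dienoyl-CoA reductase, with 919 and 1697 (1.85-fold lower). Eci2, an isomerase of both organelles, read 2082 and 2327 (-0.16).

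Genes of peroxisome assembly, transport and peroxide removal had smaller differences, and none was 1.5-fold lower in the probe set that stands for it. Pex11a, which promotes peroxisome division, read 596 in the double knockout against 845 in the control (-0.50). Pex5, the receptor that imports matrix enzymes, read 717 and 967 (-0.43). Pex19, the chaperone of peroxisomal membrane proteins, read 917 and 912 (0.01) in its brightest probe set and -0.36 and -0.30 in the others. Abcd3, a transporter of acyl-CoA across the membrane, read 4855 and 6643 (-0.45). Cat, the catalase that breaks down peroxide, read 10138 and 14437 (-0.51), and its second probe set read 7217 and 11398 (-0.66), which is past 1.5-fold. Crot and Crat, which turn acyl-CoA into carnitine esters for export, read 3652 against 4610 (-0.34) and 714 against 1013 (-0.51). One Crat probe set, cross-hybridising, read 0.02.

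**Figure D2:**
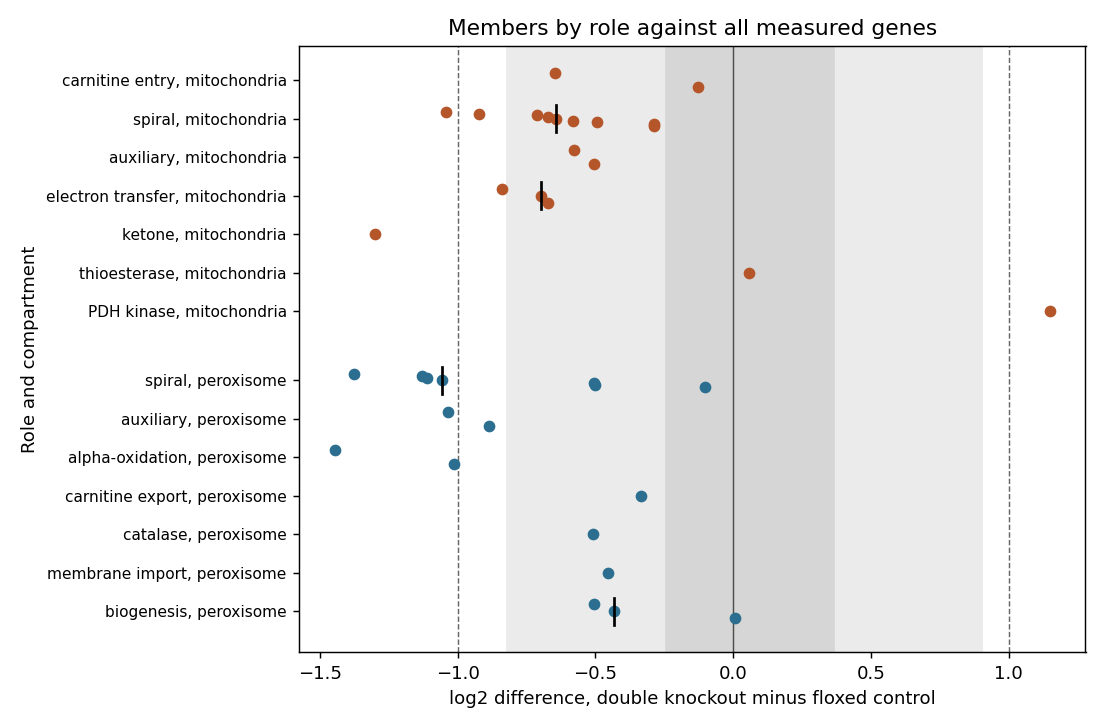
Log2 difference (double knockout minus floxed control) of each mitochondrial and peroxisomal member, by role; black bars are medians of roles with 3 or more genes, shading spans the 5th to 95th and 25th to 75th percentiles of 13290 measured genes, and dashed lines mark 2-fold. The alpha-oxidation genes and some peroxisomal spiral and auxiliary genes lie beyond the 2-fold line, while peroxisome biogenesis and import genes stay between -0.50 and 0.01. Among mitochondrial members Bdh1 and Echs1 (lower) and Pdk4 (higher) lie beyond it too.

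Compared as whole compartments, mitochondrial and peroxisomal members did not separate in a settled direction. The 19 mitochondrial members had a median of -0.64 and the 17 peroxisomal members -0.51, a difference of -0.13. This difference was above 0 in 6 of 17 alternative settings, among them 0.21 with means in place of medians and 0.24 with the mean over probe sets. Quantile normalization gave 0.10 and removal of a loess trend 0.12. Floors, centrings and recentrings left it at -0.13, as they treat the genes at the medians alike. Such settings cannot turn its sign, so 6 of 17 is not a share of informative checks. The counts leaned to the peroxisome, where 7 of 17 were at least 2-fold lower, against 2 of 19 mitochondrial members (Bdh1 and Echs1). At least 1.5-fold lower were 8 peroxisomal and 10 mitochondrial members. The counts of genes outside the members leaned the other way. Of 35 further genes of fatty acid uptake, activation and mitochondrial acyl-CoA breakdown 12 were at least 2-fold lower (34.3%). Of 41 further peroxisomal genes 3 were (7.32%), against 2.87% of measured genes. These lists are not matched by role, as the peroxisomal list includes Pex genes of biogenesis.

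Within the peroxisome the medians differed by role. The 11 oxidation enzymes (spiral, auxiliary and alpha-oxidation) had a median of -1.03, and the 4 membrane and biogenesis genes -0.44. Against the 11 mitochondrial oxidation enzymes (spiral and auxiliary), whose median was -0.58, the difference of medians (mitochondrial minus peroxisomal) was 0.45. At least 2-fold lower were 7 of 11 peroxisomal and 1 of 11 mitochondrial oxidation enzymes. These counts depended on the scaling, as several genes lay just past the line. After removal of a loess trend, Acaa1b (-0.99), Pecr (-0.86), Phyh (-0.80) and the mitochondrial Echs1 (-0.90) were short of 2-fold. This narrower comparison was chosen after the values were seen. Floors, centrings and recentrings treat these bright genes alike and cannot move the difference of medians. Among the settings that can, quantile normalization gave 0.48, removal of a loess trend 0.51, the mean over probe sets 0.39 and means in place of medians 0.31. The ranges of the groups overlapped, from -1.44 to -0.10 for the peroxisomal and from -1.04 to -0.29 for the mitochondrial enzymes.

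**Figure D3:**
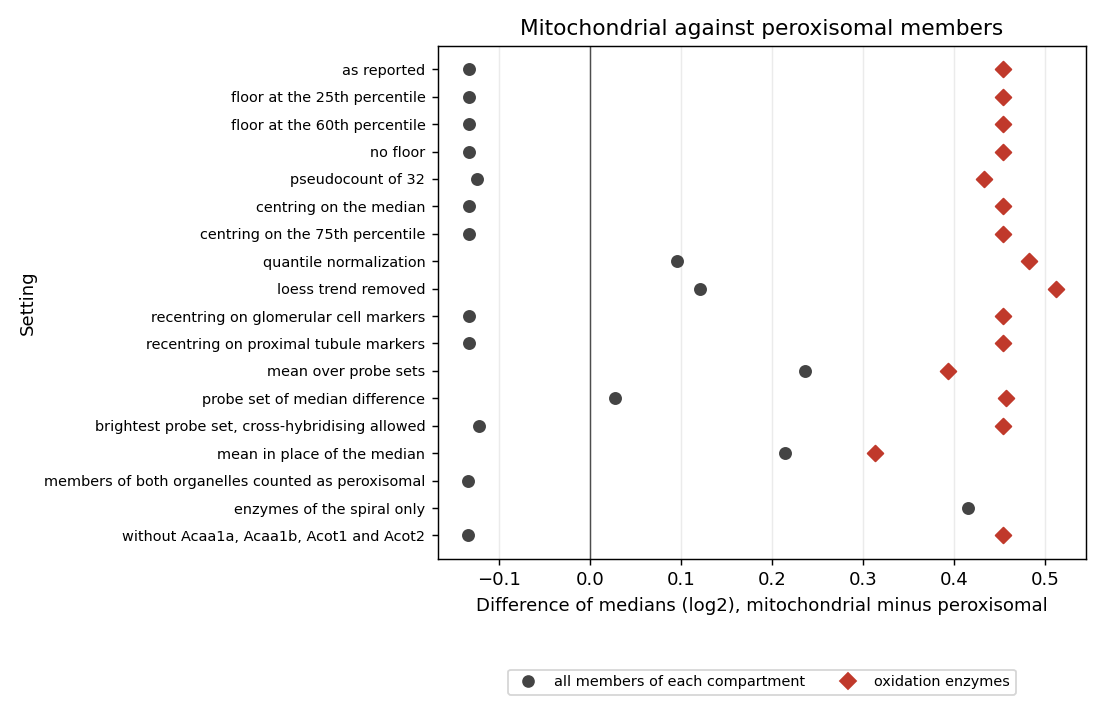
Median log2 difference of mitochondrial members minus that of peroxisomal members, under each setting, for all members of each compartment (circles) and for oxidation enzymes only (diamonds); a positive value means the peroxisomal median is lower. The circles lie on both sides of 0, and the diamonds run from 0.31 to 0.51.

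Several probe sets gave a check within genes, though not between animals. Of the members, 19 had at least 2 probe sets above the floor on both arrays, with 31 further sets beside those standing for the genes. In 23 of the 31 the sign was that of the standing set, and the 8 opposite sets belonged to 6 genes (Cpt1a, Acot2, Pex19, Hadh, Hadhb and Crat). Of these 8 sets 4 were cross-hybridising. The range within a gene had a median of 0.35 on the log2 scale, so differences of that size between members lie within the spread between probe sets.

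**Figure D4:**
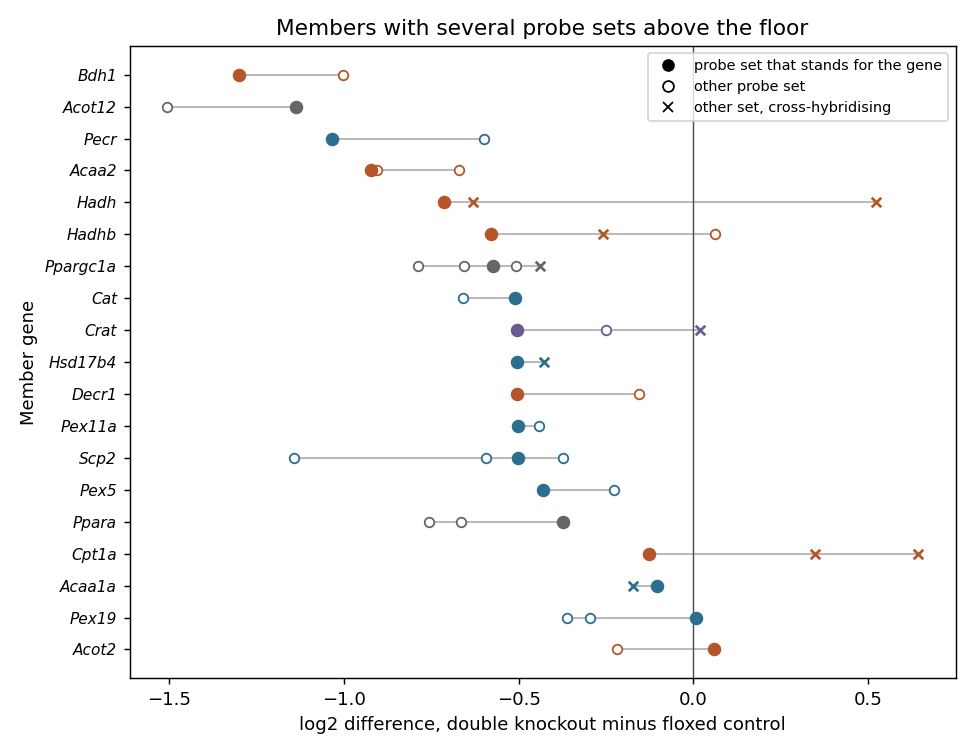
Log2 difference (double knockout minus floxed control) of every probe set above the floor on both arrays, for the 19 members with several. Filled circles stand for the gene, open circles are other sets and crosses are other sets that are cross-hybridising. The filled circle of Acaa1a is a cross-hybridising set as well. Bdh1, Acot12, Pecr and Acaa2 are below 0 in every set, whereas the sets of Cpt1a and Hadh lie on both sides of 0.

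Other genes of these pathways were mostly lower too. Some of the genes below are on more than 1 list. Of 35 further measured genes of fatty acid uptake, activation and mitochondrial acyl-CoA breakdown, 31 were lower, 12 at least 2-fold, with a median of -0.72. The largest differences were those of Acsm1 (2.66-fold lower) and Acsm5 (2.56-fold), medium-chain acyl-CoA synthetases, Ivd (2.54-fold), the isovaleryl-CoA dehydrogenase, and Acsl3 (2.49-fold), a long-chain acyl-CoA synthetase. Of 41 further measured peroxisomal genes, 36 were lower and 3 at least 2-fold (7.32%, against 2.87% of measured genes), with a median of -0.48. These 3 were Hao2, a hydroxyacid oxidase (3746 in the double knockout against 11994 in the control, 3.20-fold lower), Gstk1 (2.04-fold) and Pipox, which oxidises pipecolic acid (2.02-fold). Ephx2, a soluble epoxide hydrolase, was 1.99-fold lower. The 4 measured ketone body genes were all lower, with Slc16a1, a monocarboxylate carrier, 3.33-fold, Bdh2 2.24-fold, Acat1 1.89-fold and Oxct1 1.51-fold lower.

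Known PPARα targets outside the members went both ways, more of them lower than higher. Of 20 measured, 14 were lower (70%, against 43.9% of measured genes) and 6 higher, with a median of -0.53. Retsat (2.51-fold lower) and Cyp4a14, a fatty acid hydroxylase (2.24-fold lower), stood against Angptl4, a secreted inhibitor of lipoprotein lipase, which read 1517 in the double knockout against 647 in the control (2.34-fold higher). Angptl4 and Pdk4 were thus both higher than 2-fold while most oxidation genes were lower. Acot4, a peroxisomal thioesterase, was 1.95-fold lower. Of 17 measured partners of PPARα and PGC-1α, 11 were lower (64.7%, against 43.9% of measured genes). Rxrb, a heterodimer partner, was 2.20-fold higher, and Sirt3, a mitochondrial deacetylase, 2.00-fold lower. Pparg was at least 1.77-fold higher from a control signal below the floor, and Esrrg 1.63-fold lower.

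Promoters were searched for the direct repeat through which PPARα binds DNA with its partner RXR, which is AGGTCA followed by any base and AGGTCA again, on both strands with up to 2 mismatches over the 12 fixed bases. RefSeq windows of GRCm38.p6 from 250 bases before to 50 after a start were at hand for 39 of the 46 genes, Acsl1 among them. A match was found for 6 of 39 genes (15.4%), against 4.40% of 27025 genes with a window of the same length. These were Acot12 and Fabp1 with 1 mismatch, and Acox2, Cat, Echs1 and Etfa with 2; the Acox2 match lies after its start. By compartment 2 of 17 mitochondrial and 2 of 15 peroxisomal genes had a match. A match of letters is not evidence of binding, and the elements of such genes can lie outside this window.

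The 250 bases before the start are shown for the members with a match there that were at least 1.5-fold lower, with the matched 13 bases in capitals. They are Acot12 (chr13:91741271-91741520, + strand), Echs1 (chr7:140116422-140116671, - strand) and Etfa (chr9:55512244-55512493, - strand).
Acot12: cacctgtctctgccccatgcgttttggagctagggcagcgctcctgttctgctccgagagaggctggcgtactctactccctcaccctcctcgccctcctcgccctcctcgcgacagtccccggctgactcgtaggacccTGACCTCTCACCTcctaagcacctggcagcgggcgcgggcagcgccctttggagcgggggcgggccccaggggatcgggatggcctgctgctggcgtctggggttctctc
Echs1: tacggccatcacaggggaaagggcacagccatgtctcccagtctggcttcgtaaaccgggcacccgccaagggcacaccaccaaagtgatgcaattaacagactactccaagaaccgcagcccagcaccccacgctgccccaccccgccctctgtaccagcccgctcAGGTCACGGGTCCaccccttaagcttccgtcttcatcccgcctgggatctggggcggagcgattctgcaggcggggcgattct
Etfa: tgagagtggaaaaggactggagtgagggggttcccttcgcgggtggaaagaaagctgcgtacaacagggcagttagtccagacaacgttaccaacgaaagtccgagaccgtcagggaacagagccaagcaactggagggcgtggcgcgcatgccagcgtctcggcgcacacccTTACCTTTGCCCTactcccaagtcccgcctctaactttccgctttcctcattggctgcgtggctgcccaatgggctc
In Acot12 and Etfa the match is on the reverse strand, and in Echs1 on the strand shown. Pdk4, the member that was higher, had no match in its window, which says only that these letters are not there.

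Beside the most similar lists, the median of the members was nearer to 0 than that of proximal tubule markers. The 32 measured genes of oxidative phosphorylation were all lower, none by 2-fold, with a median of -0.60 and a narrow range from -0.81 to -0.31. The members had nearly the same median (-0.58) on the deposited scaling, with a wider range, from -1.44 to 1.15. The closeness depended on the scaling: the medians of members and respiratory chain genes were -0.52 and -0.39 after quantile normalization, and -0.50 and -0.36 after removal of a loess trend. The proximal tubule median was -0.69 and -0.67 in these settings, closer to that of the members than on the deposited scaling. On the deposited scaling, 12 of 44 members were below the proximal tubule median of -0.88 and 32 above it. Of all measured genes, 4.28% were below it. Among the 12 were 8 of 17 peroxisomal and 3 of 19 mitochondrial members. Recentred on that median, the members had a median of 0.30, against 0.95 for all measured genes, and none was 2-fold lower. The peroxisomal oxidation enzymes stood at -0.16. Recentred on glomerular cell markers, the members stood at -1.21 and 33 of 44 were at least 2-fold lower, with 18.5% of all measured genes past that size.

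**Figure D5:**
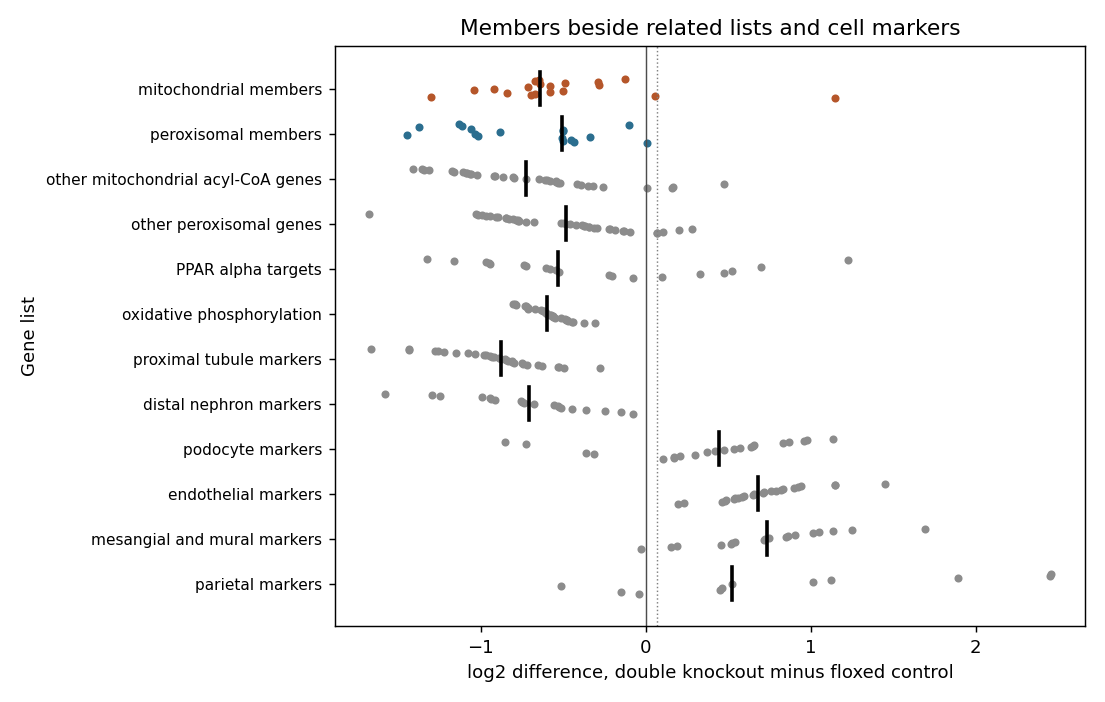
Log2 difference (double knockout minus floxed control) of mitochondrial and peroxisomal members, related gene lists and cell type markers; each point is a gene, black bars are medians and the dotted line is the median of all measured genes (0.07). The tubule lists lie wholly below 0 and the endothelial list wholly above it, with the members on the side of the tubule lists.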

How the data were processed

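Glomerular total RNA (250 ng) was labelled with a 3′ in vitro transcription kit, per the labels' protocols. The deposited values were linear MAS5 intensities, 1 for each probe set on an array, per the submitters' processing notes. From the values, the mean after leaving out the lowest and highest 2% was 500.0 on both arrays, so a difference is relative to the rest of its sample. The number of arrays limits the precision.

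Signals were used as deposited, and 64 control probe sets were left out. Of 45037 others, 34945 had 1 gene symbol, 932 had several and 9160 none in GEO's platform annotation. All 83 probe sets of the members matched RefSeq's GRCm38.p6 gene table, with 0 symbols updated. A gene was represented by its brightest probe set, without cross-hybridising sets (_x_at) where another existed. The floor, 52.7, was the mean over arrays of the 40th percentile, and signals below it were raised to it. The 13290 genes reaching it on an array were called measured. Differences are log2, computed from the deposited intensities. Every member could be named, and of each other list the 4 genes with the largest difference. The members and lists were chosen with earlier results of these data known. Alternatives covered floors, scalings, probe sets, means and membership. Python 3.11.15, pandas 2.3.3, statsmodels 0.14.6; steps were tested on simulated data.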

Additional observations from a re-analysis of the deposited data

How the results depend on the processing

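No paired analysis was possible because each genotype had 1 array. No replicate could be left out, and a move of a median by over 0.1 on the log2 scale, or of a count by over 1.5 times, is given here; the cause was not tested. Outside the recentrings, the median of all members ran from -0.67 to -0.50 and the count of members at least 2-fold lower from 6 to 11. In every setting other than recentring on proximal tubule markers, 39 of 44 members stayed below 0. Centring on the 75th percentile, or on the median, brought the median of all measured genes from 0.07 to -0.02. The 60th percentile floor left 0 members at least 2-fold higher. Quantile normalization gave medians of -0.50 (mitochondrial) and -0.45 (mitochondrial oxidation enzymes), and a difference between mitochondrial and peroxisomal medians of 0.10. Removing a loess trend gave -0.48, -0.43 and 0.12, with 6 members at least 2-fold lower.

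Recentring on glomerular cell markers gave -1.21 for all members, -1.28 and -1.15 for mitochondrial and peroxisomal members, and -1.22 and -1.67 for their oxidation enzymes. It left 42 members at least 1.5-fold lower, 33 at least 2-fold lower and 0 at least 2-fold higher. Recentring on proximal tubule markers turned the medians to 0.30 (all), 0.24 (mitochondrial), 0.37 (peroxisomal) and 0.30 (mitochondrial oxidation enzymes), with -0.16 for the peroxisomal oxidation enzymes. It left 12 members lower and 0 lower by 1.5-fold or 2-fold, with all measured genes at a median of 0.95. The mean over probe sets gave -0.35 (mitochondrial), -0.89 (peroxisomal oxidation enzymes) and a difference of 0.24 between the compartments. The probe set of median difference gave -0.66 (peroxisomal) and a difference of 0.028. Means in place of medians gave -0.52 (mitochondrial), -0.73 (peroxisomal), -0.92 (peroxisomal oxidation enzymes), and differences of 0.21 between the compartments and 0.31 between their oxidation enzymes. With enzymes of the spiral only, the peroxisomal median was -1.06 and the difference 0.42. Signals near the floor limit Fabp1 and the dim sets of Cpt2, Bdh1 and Hadhb.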
